A study of Saccharomyces cerevisiae with 6 samples.

Results

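The mitochondrial protein import machinery of the yeast Saccharomyces cerevisiae was followed here through 35 genes: the subunits of the outer membrane translocase (TOM genes) and of its β-barrel assembly partner (SAM genes), the chaperones and the oxidation pathway of the intermembrane space, the inner membrane translocases TIM23 and TIM22, the import motor with the matrix Hsp70 system, the processing peptidase and the insertase gene OXA1. Members were chosen by name and role, with earlier results of these data known. Each was read through the probe that carries the gene's systematic name. All 35 were among the 6256 gene probes of the array, 1 probe each. All 35 were well above background on all 6 arrays, so the filter on dim probes, which left 5863 genes for testing, removed none of them.

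RNA came from cultures of BY4741, a haploid laboratory strain, and of the same background with PHO80 deleted, both taken after 6 h of fermenting xylose at 80 g/l. The product of PHO80 is a cyclin whose kinase, Pho85, holds the phosphate regulator Pho4 in check when phosphate is plentiful. Each strain had 3 samples, and each sample was hybridised in 1 colour (Cy3) to its own Agilent array. The age of the cultures before the fermentation and the marker used for the deletion are not given in the sources used here, and nothing in the labels ties the replicates to separate cultures, so SE and p-values measure only the spread between these samples, which may be technical.

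Nearly all mitochondrial proteins are encoded in the nucleus, made in the cytosol and imported. The TOM complex is the entry gate. From it, precursors with an N-terminal presequence pass through TIM23 and are pulled into the matrix by the Hsp70 motor, carrier proteins are escorted by the small TIM chaperones to TIM22, β-barrel proteins go to SAM, and small cysteine-rich proteins are trapped in the intermembrane space by the Mia40 oxidation pathway.

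Levels below are log2 processed signal minus the 75th percentile of the array's signal, and a fold change is the deletion strain minus wild type on that scale. A level says nothing between probes, so no gene's level is set against another's. The 75th percentile of the signal was 2404 to 5011 over the 6 arrays, 92.0% to 94.6% of probes were well above background, and no spot was saturated. In both strains arrays 1 and 3 were closer to each other than repeated spots of 1 probe are (median squared difference over spot variance 0.435 for wild type and 0.412 for the deletion, against 0.484 from spot noise) and were averaged as 1 sample, which left 2 samples per strain. Deletion array 2 lay far from deletion arrays 1 and 3 (88.5 and 94.5), and wild-type array 2 lay close to its companions (0.631 and 0.665). Over the 35 import genes alone these values were 73.9 and 80.7 in the deletion strain and 0.642 and 0.737 in wild type. Each strain was on its own slide with its own scan, and slide therefore cannot be told apart from strain. PHO80 read -2.93, -2.83 and -2.86 on the wild-type arrays and -9.41, -9.85 and -9.96, not well above background, on the deletion arrays. HIS3, LEU2 and MET17, deleted in whole or in part in BY4741, were not well above background on any array, whereas URA3, also deleted in it, read 3.74 to 3.79 in wild type and 5.55 to 6.11 in the deletion strain. BY4741 is an a strain: the a-cell genes MFA1, MFA2, STE2 and BAR1 were well above background on all arrays, but so was the α-cell gene STE3, and MF(ALPHA)1 was on the wild-type arrays (-3.41 to -3.37) and not on the deletion arrays (-8.09 to -7.85). MF(ALPHA)2 was not well above background on any array. The part of these markers in the results was not tested. In RNA from whole cultures, fewer cells carrying a transcript and less transcript per cell cannot be told apart.

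The import genes did not move as 1 block. The deletion strain had less mRNA for most of the small TIM chaperones and for the 2 β-barrel channel proteins Tom40 and Sam50. It had more for Mia40, for the presequence-cleaving subunit Mas1, and for the matrix chaperones Mdj1 and Ssc1. By limma at an adjusted p under 0.05, 7 of the 35 rose (MDJ1, MAS1, MIA40, TOM6, SSC1, TOM70 and TIM21) and 7 fell (TIM10, TIM8, TIM9, SAM50, PAM17, TOM40 and TIM12). That is 20% in each direction, against 19.2% higher and 34.6% lower among all 5863 genes tested. The share that rose was thus near that of all genes. The median over the 35 fold changes was 0.03, and that over all genes was -0.28, a distance of 0.31. The fold changes ran from -1.95 to 1.47, and 23 of the 35 genes lay above the median of all genes. All 3 deletion arrays lay above all 3 wild-type arrays for 15 members and below them for 13, against 31.1% and 50.9% of all genes tested, and the strains overlapped for 7. Array 2 of either strain moved these counts. Without wild-type array 2, 3 were called higher and 4 lower, against 8.92% and 19.1% of all genes. That fit has 1 wild-type sample, assumed to vary like the deletion samples, and takes its spread from the discordant deletion arrays alone, so a call missed there beside a fold change that hardly moved does not show a weaker change. Without deletion array 2, 17 were called higher and 16 lower, against 37.5% and 56.1% of all genes, with the spread taken from the wild-type arrays alone, which lay near spot noise. Centring the arrays on their median, which moves the median of all genes to 0.01, gave 12 higher and 5 lower, against 26.3% and 25.8% of all genes. Of the 14 called genes, 7 were called under all 18 fits run. They were MDJ1, MAS1 and MIA40 as higher and TIM10, TIM9, TIM8 and SAM50 as lower. The fits reuse the same arrays, and no share of all genes is given for this count. It therefore does not set the import genes apart from other genes.

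**Figure D1:**
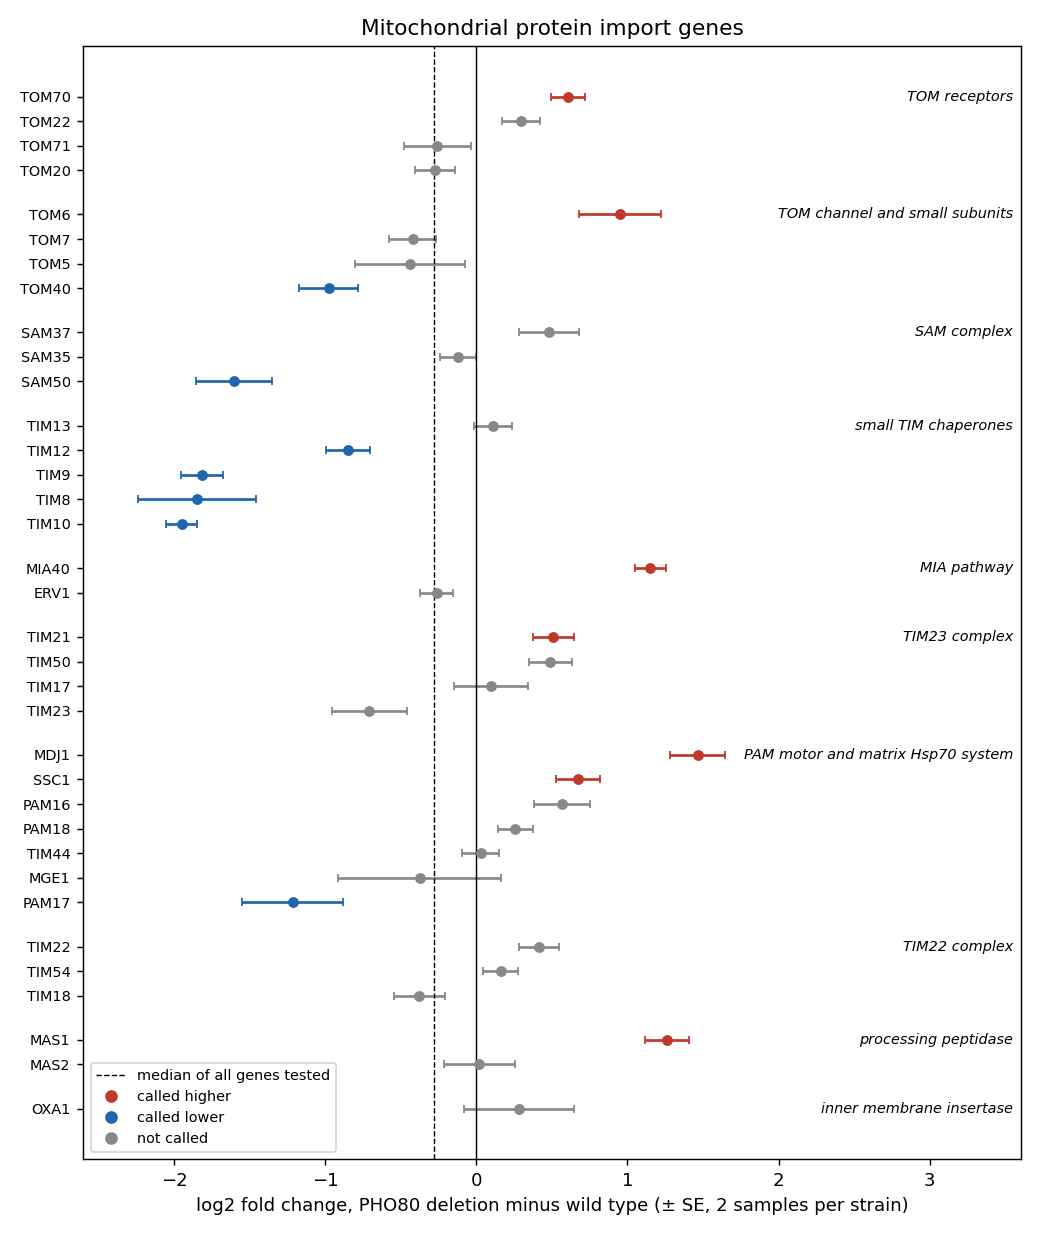
Log2 fold change (x axis, PHO80 deletion minus wild type, bars ± SE, 2 samples per strain) of the 35 import genes (y axis), grouped by complex; the dashed line is the median of all genes tested. The small TIM genes other than TIM13 lie between -1.95 and -0.85, and MDJ1, MAS1 and MIA40 lie furthest to the right at 1.47, 1.26 and 1.15.

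The small TIM chaperones of the intermembrane space carried the largest falls of the list. These proteins form hexamers, Tim9 with Tim10 and Tim8 with Tim13, that shield hydrophobic precursors on their way across the intermembrane space, and Tim12 docks such a hexamer on the TIM22 complex. Of the 5 genes, 4 fell and none rose (80% lower and 0% higher, against 34.6% and 19.2% of all genes). Their median fold change was -1.82 (-1.53 relative to all genes). TIM10 (YHR005C-A) read 1.001, 1.004 and 1.03 on wild-type arrays 1 to 3 and -0.97, -0.92 and -0.95 on deletion arrays 1 to 3. All deletion arrays lay nearly 2 log2 units below all wild-type arrays, with little spread, and the fall was 3.86-fold (-1.95 ± 0.10 SE, adjusted p = 0.00237 by limma). TIM9 (YEL020W-A) read 1.28, 1.31 and 1.30 in wild type against -0.37, -0.65 and -0.39 in the deletion strain, a fall of 3.52-fold (-1.82 ± 0.14, adjusted p = 0.00327). Its strains did not overlap either, and deletion array 2 was the lowest array. TIM8 (YJR135W-A) read 1.83, 1.88 and 1.83 on the wild-type arrays and 0.54, -0.52 and 0.52 on the deletion arrays. It fell 3.599-fold (-1.85 ± 0.39, adjusted p = 0.0225), with deletion array 2 about 1 log2 unit below the other deletion arrays, and without that array the fold change was -1.32.

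TIM12 (YBR091C) read -1.33, -1.40 and -1.40 in wild type against -2.37, -2.09 and -2.36 in the deletion strain, a fall of 1.80-fold (-0.85 ± 0.15, adjusted p = 0.0142). The strains did not overlap, but its call was lost with median centring (-0.55, adjusted p = 0.0622) and with quantile normalization (-0.46, adjusted p = 0.0874). Without wild-type array 2 its fold change was -0.87 but did not pass (adjusted p = 0.18). TIM13 (YGR181W), the partner of TIM8, stood apart from the other 4. It read -1.68, -1.67 and -1.67 on the wild-type arrays and -1.63, -1.48 and -1.65 on the deletion arrays, with a fold change of 0.11 ± 0.12 (adjusted p = 0.489 by limma; 0.47 and adjusted p = 0.0468 with quantile normalization). All deletion arrays lay above all wild-type arrays, by as little as 0.02 between the nearest arrays.

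**Figure D2:**
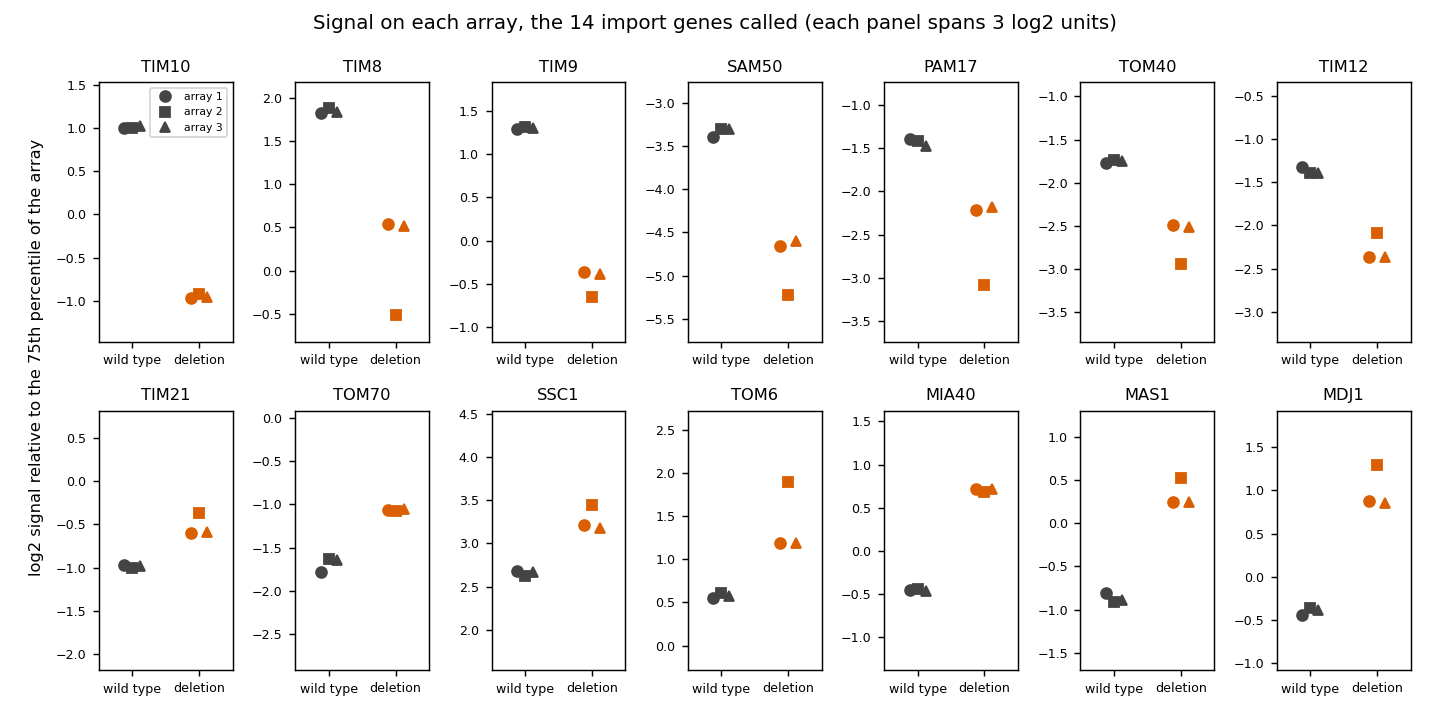
Level as log2 signal after scaling to the 75th percentile (y axis, each panel spanning 3 log2 units) on the 3 wild-type arrays (grey) and the 3 deletion arrays (orange) for the 14 import genes called; circles, squares and triangles are arrays 1, 2 and 3. Arrays 1 and 3 of the deletion strain nearly coincide in all panels, while array 2 stands apart for TIM8, PAM17, SAM50 and TOM6 and not for TIM10, MIA40 and TOM70.

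In the oxidation pathway that traps the small TIM proteins, MIA40 was called higher and ERV1 was not called. Mia40 is the receptor and oxidoreductase that forms disulfides in incoming small TIM proteins, and Erv1 is the sulfhydryl oxidase that reoxidises Mia40. MIA40 (YKL195W) read -0.45, -0.44 and -0.47 on the wild-type arrays and 0.72, 0.68 and 0.72 on the deletion arrays. The arrays of each strain lay within 0.03 of each other, and MIA40 rose 2.22-fold (1.15 ± 0.10, adjusted p = 0.0039 by limma). ERV1 (YGR029W) read -1.06, -1.04 and -1.05 in wild type against -1.29, -1.34 and -1.28 in the deletion strain. Its strains did not overlap, but the fold change of -0.26 ± 0.11 did not pass (adjusted p = 0.111). That fold change lay 0.02 above the median of all genes and was 0.03 with median centring. With the 6 arrays kept as separate samples ERV1 was called lower (-0.25, adjusted p = 0.00485 by limma).

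Ratios of partner genes within an array are free of the scaling between arrays, although the size of a ratio of 2 different probes has no meaning of its own. The TIM8 to TIM13 ratio was 3.50, 3.54 and 3.50 (log2) on the wild-type arrays and 2.17, 0.96 and 2.16 on the deletion arrays, a change of -1.96, with all deletion arrays below all wild-type arrays. The TIM9 to TIM10 ratio was 0.28, 0.31 and 0.27 on the wild-type arrays and 0.60, 0.27 and 0.56 on the deletion arrays, a change of 0.14, and the strains overlapped. The MIA40 to ERV1 ratio was 0.61, 0.60 and 0.58 in wild type against 2.00, 2.02 and 2.00 in the deletion strain. This change of 1.41 was the most even across arrays of the 8 ratios computed, with the deletion arrays within 0.03 of each other. With 2 samples per strain an exact two-sided permutation test cannot go below p = 0.333, so no p is given for these ratios.

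**Figure D3:**
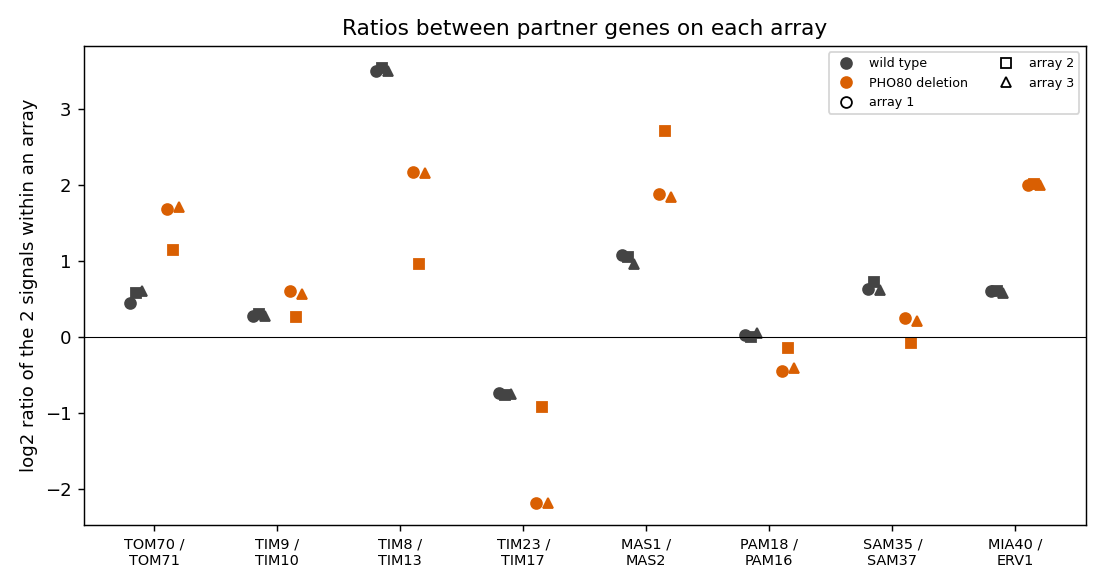
Log2 ratio of the signals of 2 partner genes within an array (y axis) for 8 gene pairs (x axis), wild type in grey and PHO80 deletion in orange; circles, squares and triangles are arrays 1, 2 and 3. The TIM8 to TIM13 ratio changes by -1.96, and the MIA40 to ERV1 and MAS1 to MAS2 ratios change by 1.41 and 1.24, whereas the TIM9 to TIM10 arrays of the strains overlap.

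At the outer membrane, the channel genes of both β-barrel complexes fell. Tom40 forms the pore of the TOM complex, and Sam50 is the core of the SAM complex, which inserts β-barrel proteins, Tom40 among them. SAM50 (YNL026W) read -3.40, -3.30 and -3.30 on the wild-type arrays and -4.66, -5.23 and -4.60 on the deletion arrays. It fell 3.04-fold (-1.60 ± 0.25, adjusted p = 0.0112 by limma), with no overlap between strains, and by less with quantile normalization (-0.65, adjusted p = 0.0449). TOM40 (YMR203W) read -1.77, -1.73 and -1.74 in wild type against -2.49, -2.94 and -2.52 in the deletion strain. It fell 1.97-fold (-0.98 ± 0.19, adjusted p = 0.0195), again with deletion array 2 lowest. The call was lost with quantile normalization (-0.43, adjusted p = 0.0532). Without wild-type array 2 the fold change was -0.96 but did not pass (adjusted p = 0.142). The peripheral SAM subunits did not pass. SAM37 (YMR060C), which lies on the cytosolic face, read -1.27, -1.30 and -1.26 on the wild-type arrays and -1.06, -0.57 and -1.02 on the deletion arrays (0.48 ± 0.20, adjusted p = 0.11), and SAM35, which recognises the β-signal of precursors, had a fold change of -0.12 ± 0.12.

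The small TOM subunits, which stabilise or loosen the complex around the pore, differed among themselves. TOM6 (YOR045W), which promotes assembly of the complex, read 0.55, 0.61 and 0.57 in wild type against 1.19, 1.89 and 1.18 in the deletion strain. It rose 1.94-fold (0.95 ± 0.27, adjusted p = 0.0476 by limma) but by 0.60 without deletion array 2, and its call was lost without wild-type array 2 (0.98, adjusted p = 0.0888) and without the intensity trend (adjusted p = 0.0508). TOM7 (YNL070W) read 1.41, 1.38 and 1.41 in wild type against 0.79, 1.14 and 0.82 in the deletion strain, lower on all deletion arrays. Neither TOM7 (-0.42 ± 0.16, adjusted p = 0.0905) nor TOM5 (-0.44 ± 0.36, adjusted p = 0.358) passed. On TOM5 deletion array 2 (-3.72) lay among the wild-type arrays (-3.81 to -3.69), and the other deletion arrays read -4.67 and -4.65.

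Of the receptors that recognise precursors on the mitochondrial surface, TOM70 rose. Tom70 takes carrier precursors from cytosolic chaperones, and Tom71 is its less abundant paralog. TOM70 (YNL121C) read -1.78, -1.63 and -1.65 on the wild-type arrays and -1.06, -1.08 and -1.05 on the deletion arrays, with no overlap. The rise was 1.52-fold (0.61 ± 0.11, adjusted p = 0.0164 by limma). It was 0.92 with quantile normalization, and without wild-type array 2 it was 0.65 but did not pass (adjusted p = 0.309). TOM71 (YHR117W) read -2.23, -2.21 and -2.25 in wild type against -2.75, -2.22 and -2.75 in the deletion strain. Deletion array 2 stood at the wild-type level and the other deletion arrays about 0.5 below it, and the fold change was -0.26 ± 0.22 (adjusted p = 0.371). The TOM70 to TOM71 ratio was higher on all deletion arrays (1.69, 1.15 and 1.71) than on all wild-type arrays (0.45, 0.58 and 0.60). TOM20 (YGR082W), the presequence receptor, read -2.54, -2.52 and -2.50 on the wild-type arrays and -2.88, -2.71 and -2.87 on the deletion arrays, below wild type without overlap and with a fold change of -0.27 ± 0.13 that did not pass (adjusted p = 0.155; 0.02 with median centring and 0.40 with quantile normalization). TOM22, the central receptor, had a fold change of 0.30 ± 0.12 (adjusted p = 0.117) and was called higher with median centring (0.59, adjusted p = 0.0201).

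In the TIM23 complex, the presequence translocase of the inner membrane, only TIM21 of 4 genes passed. Among all genes 19.2% were called higher and 34.6% lower. Tim21 contacts the TOM complex and the respiratory chain. TIM21 (YGR033C) read -0.98, -1.003 and -0.98 in wild type against -0.60, -0.36 and -0.59 in the deletion strain, a rise of 1.42-fold (0.51 ± 0.13, adjusted p = 0.0388 by limma) without overlap. It rose by 0.80 with median centring, and without wild-type array 2 the fold change was 0.50 but did not pass (adjusted p = 0.441). TIM50 (YPL063W), the receptor of the complex, read -0.60, -0.62 and -0.65 in wild type against -0.26, 0.00 and -0.28 in the deletion strain. It was higher on all deletion arrays and lay just outside the threshold, with a fold change of 0.49 ± 0.14 (adjusted p = 0.0504). TIM50 was called higher with median centring (0.78, adjusted p = 0.026) and with quantile normalization (0.57, adjusted p = 0.0294). The channel gene TIM23 (YNR017W) read -0.32, -0.37 and -0.32 on the wild-type arrays and -1.39, -0.74 and -1.35 on the deletion arrays. All deletion arrays lay below wild type, and the fold change of -0.71 ± 0.25 did not pass (adjusted p = 0.0775 by limma). The TIM23 fold change was -1.02 without deletion array 2. TIM17, whose product lines the translocation path beside Tim23, had a fold change of 0.10 ± 0.25 (adjusted p = 0.767), with deletion array 2 at 0.18 below the wild-type arrays (0.38 to 0.42) and the other deletion arrays at 0.79 and 0.83 above them. The TIM23 to TIM17 ratio was -0.73, -0.76 and -0.74 on the wild-type arrays and -2.18, -0.92 and -2.18 on the deletion arrays, all lower than in wild type but array 2 by far less.

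The carrier translocase TIM22 had no called gene among its 3, against 19.2% called higher and 34.6% called lower among all genes. TIM22 (YDL217C), the channel, read -2.93, -2.94 and -2.82 in wild type against -2.39, -2.57 and -2.43 in the deletion strain. The strains did not overlap, and the fold change was 0.41 ± 0.13 (adjusted p = 0.0654 by limma; 0.71 and adjusted p = 0.0156 with median centring). TIM18 (YOR297C), an assembly subunit, read -2.73, -2.72 and -2.68 on the wild-type arrays and -3.28, -2.93 and -3.23 on the deletion arrays, with a fold change of -0.38 ± 0.17 (adjusted p = 0.129; 0.35 with quantile normalization). TIM54 had a fold change of 0.16 ± 0.12.

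In the matrix, the J-protein and the Hsp70 rose. Ssc1 is the Hsp70 that drives the import motor and folds imported proteins, Mdj1 is the J-protein that stimulates it in folding, and Mge1 is its nucleotide exchange factor. MDJ1 (YFL016C) read -0.44, -0.36 and -0.38 in wild type against 0.88, 1.29 and 0.86 in the deletion strain. It had the largest rise of the list, 2.76-fold (1.47 ± 0.18, adjusted p = 0.00682 by limma), with no overlap. SSC1 (YJR045C) read 2.68, 2.63 and 2.67 on the wild-type arrays and 3.21, 3.45 and 3.18 on the deletion arrays, a rise of 1.60-fold (0.67 ± 0.14, adjusted p = 0.0237). The SSC1 call was lost with quantile normalization (0.24, adjusted p = 0.0665). Without wild-type array 2 the SSC1 fold change was 0.65 but did not pass (adjusted p = 0.341). The other mitochondrial Hsp70 genes, which are no members of the list, were not called higher beside it. ECM10 (YEL030W), the closest paralog of SSC1, read -1.84, -1.92 and -1.87 in wild type against -2.45, -2.82 and -2.47 in the deletion strain and fell 1.69-fold (-0.75 ± 0.17, adjusted p = 0.0287), but lost its call with median centring (-0.46, adjusted p = 0.0667), with quantile normalization (-0.20, adjusted p = 0.238) and without wild-type array 2 (-0.79, adjusted p = 0.244). SSQ1 (YLR369W), the Hsp70 of iron-sulfur cluster synthesis, read -0.28, -0.31 and -0.24 on the wild-type arrays and -0.05, -0.38 and -0.02 on the deletion arrays, with overlap (0.08 ± 0.16, adjusted p = 0.72 by limma). Its deletion arrays 1 and 3 lay above wild type. The SSQ1 fold change was 0.25 without deletion array 2 and 0.37 with median centring.

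MGE1 (YOR232W), singled out after its values were seen, had the largest SE of the list. It read -0.17, -0.16 and -0.16 in wild type against 0.22, -1.28 and 0.18 in the deletion strain. Deletion arrays 1 and 3 lay above wild type and array 2 lay more than 1 log2 unit below it, so that the fold change was -0.38 ± 0.54 (adjusted p = 0.587 by limma) with array 2 and 0.37 without it. Among the motor subunits that tether Ssc1 to the channel, PAM17 (YKR065C) read -1.39, -1.42 and -1.48 on the wild-type arrays and -2.22, -3.08 and -2.18 on the deletion arrays, a fall of 2.32-fold (-1.21 ± 0.33, adjusted p = 0.0439). Its call was lost with median centring (-0.92, adjusted p = 0.0628), with quantile normalization (-0.74, adjusted p = 0.0645) and without wild-type array 2 (-1.21, adjusted p = 0.0551), and the fold change was -0.77 without deletion array 2. PAM16 (YJL104W) read -1.42, -1.39 and -1.42 in wild type against -0.61, -1.05 and -0.63 in the deletion strain, higher on all deletion arrays. PAM16 and PAM18, the J-like and J-domain subunits of the motor, had fold changes of 0.57 ± 0.19 and 0.26 ± 0.12 (adjusted p = 0.0683 and 0.138), and both were called higher with median centring (0.86 and 0.55). TIM44, the anchor of Ssc1, had a fold change of 0.03 ± 0.12.

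The 2 subunits of the matrix processing peptidase, which cuts presequences off, differed. Mas1 is the catalytic β subunit and Mas2 the α subunit that recognises the substrate. MAS1 (YLR163C) read -0.80, -0.92 and -0.89 in wild type against 0.24, 0.52 and 0.24 in the deletion strain and rose 2.40-fold (1.26 ± 0.15, adjusted p = 0.00588 by limma). MAS2 (YHR024C) read -1.89, -1.97 and -1.85 on the wild-type arrays and -1.63, -2.18 and -1.60 on the deletion arrays. Deletion array 2 was the lowest of the 6 and the other deletion arrays the highest, and the fold change was 0.02 ± 0.23 (adjusted p = 0.95). The MAS1 to MAS2 ratio was 1.08, 1.06 and 0.96 in wild type against 1.88, 2.71 and 1.85 in the deletion strain, a change of 1.24 without overlap. OXA1 (YER154W), the insertase for proteins entering the inner membrane from the matrix side, read -0.52, -0.40 and -0.46 on the wild-type arrays and -0.66, 0.32 and -0.64 on the deletion arrays. Its deletion arrays lay on both sides of wild type, and the fold change was 0.28 ± 0.36 (adjusted p = 0.544) with deletion array 2 and -0.20 without it.

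The import genes differed in how far deletion array 2 departed from the other deletion arrays. The range over the 3 wild-type arrays had a median of 0.05 over the 35 genes (0.00 to 0.15), and the range over the 3 deletion arrays had a median of 0.29 (0.03 to 1.504). Array 2 lay above the mean of arrays 1 and 3 for 20 members and below it for 15, against 2987 and 2876 of all genes tested. The median of the signed differences was 0.15 over the members and 0.02 over all genes tested. Array 2 stood furthest above for OXA1 and TOM5 (0.97 and 0.94) and furthest below for MGE1 and TIM8 (-1.48 and -1.05). For TOM70, MIA40 and TIM10 it stood within 0.05 of the other deletion arrays.

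**Figure D4:**
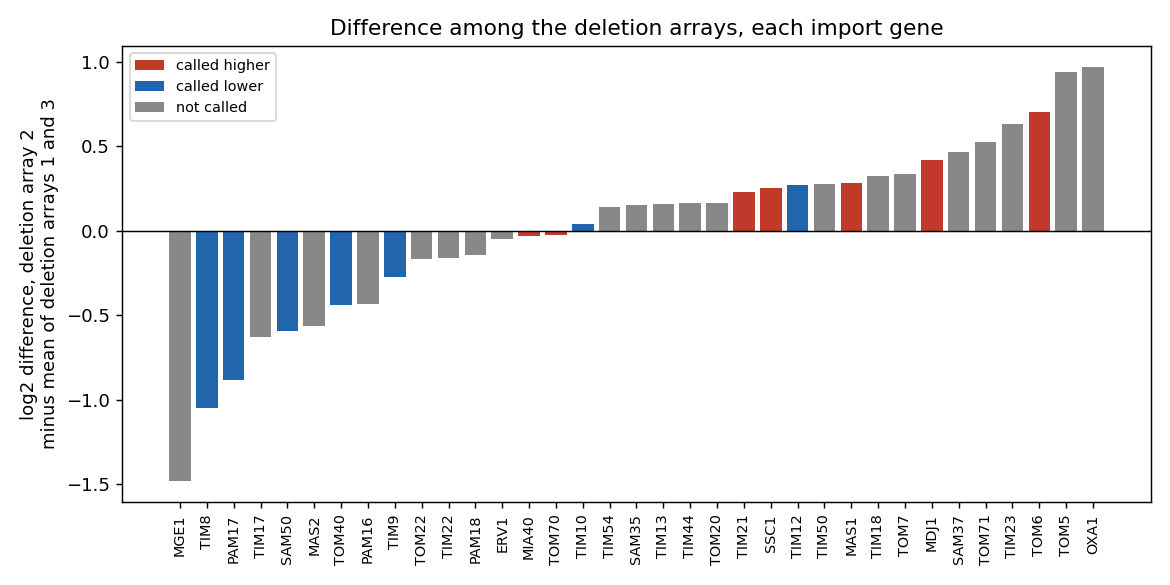
Log2 difference between deletion array 2 and the mean of deletion arrays 1 and 3 (y axis) for each of the 35 import genes (x axis), coloured by call. The differences run from -1.48 for MGE1 to 0.97 for OXA1, and those of TOM70, MIA40 and TIM10 are near 0.

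Members listed as essential and members listed as dispensable both included rises and falls. Of 20 members listed as essential in this yeast, 3 rose and 5 fell (15% and 25%, against 19.2% and 34.6% of all genes), with a median fold change of 0.02. Of 14 listed as dispensable, 4 rose and 2 fell (28.6% and 14.3%), with a median of -0.07. TIM54, for which deletion strains have been described both ways, was left out of this split. No test of the difference was made.

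Other genes of import, sorting and matrix folding, 27 listed by role, changed in both directions. Of these 4 rose and 8 fell (14.8% and 29.6%), shares near the 19.2% and 34.6% of all genes, with a median fold change of -0.09 (0.19 above that of all genes). Leaving out wild-type array 2 gave 3 higher and 4 lower (all genes 8.92% and 19.1%), leaving out deletion array 2 gave 12 and 13 (37.5% and 56.1%), and median centring gave 9 and 4 (26.3% and 25.8%). HOT13 (YKL084W), which keeps Mia40 free of zinc for its reoxidation, read -2.56, -2.62 and -2.59 in wild type against -0.25, 0.21 and -0.23 in the deletion strain. It had the largest rise of either list, 6.00-fold (2.58 ± 0.19, adjusted p = 0.00319 by limma). MDM38, which binds mitochondrial ribosomes at the inner membrane, and HSP78, a matrix disaggregase that works with Ssc1, rose by 1.74 ± 0.16 and 1.40 ± 0.17 (adjusted p = 0.0039 and 0.00673). Of the falls, OCT1 (YKL134C), a matrix peptidase that trims presequence-cleaved proteins further, read -0.95, -0.94 and -0.97 on the wild-type arrays and -2.99, -3.36 and -2.96 on the deletion arrays. It fell 4.65-fold (-2.22 ± 0.18, adjusted p = 0.00338). MDM10, a β-barrel protein that joins the SAM complex, fell as well (-1.90 ± 0.15, adjusted p = 0.00338; -1.01 with quantile normalization), as did IMP1 (-1.16 ± 0.10, adjusted p = 0.00389), a catalytic subunit of the inner membrane peptidase.

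Porins and metabolite carriers, which reach their membranes through TOM with SAM or through TOM, the small TIM chaperones and TIM22, are cargo of these pathways. Of 18 such genes 3 rose and 7 fell (16.7% and 38.9%, near the 19.2% and 34.6% of all genes), and the median of their fold changes was -0.52 (-0.23 against the median of all genes). Without wild-type array 2 the counts were 1 higher and 2 lower (all genes 8.92% and 19.1%), and without deletion array 2 they were 7 and 11 (37.5% and 56.1%). The named examples were chosen after their values were seen. PET9, the main ADP/ATP carrier gene, read 1.46, 1.38 and 1.47 in wild type against 0.53, 0.39 and 0.51 in the deletion strain and fell (-0.97 ± 0.12, adjusted p = 0.00633 by limma; -1.01 and adjusted p = 0.0761 without wild-type array 2). OAC1, the oxaloacetate carrier gene, fell furthest (-3.43 ± 0.14, adjusted p = 0.00233). The phosphate carrier genes went opposite ways: MIR1, the main one, fell (-0.65 ± 0.12, adjusted p = 0.0151), and PIC2, the minor one, rose (1.42 ± 0.28, adjusted p = 0.0191). The MIR1 call was lost with median centring (-0.36, adjusted p = 0.117), and without wild-type array 2 its fold change was -0.65 but did not pass (adjusted p = 0.301). POR1, the main porin gene, rose (0.99 ± 0.21, adjusted p = 0.0215), by 0.58 with quantile normalization, and without wild-type array 2 its fold change was 0.98 but did not pass (adjusted p = 0.177).

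**Figure D5:**
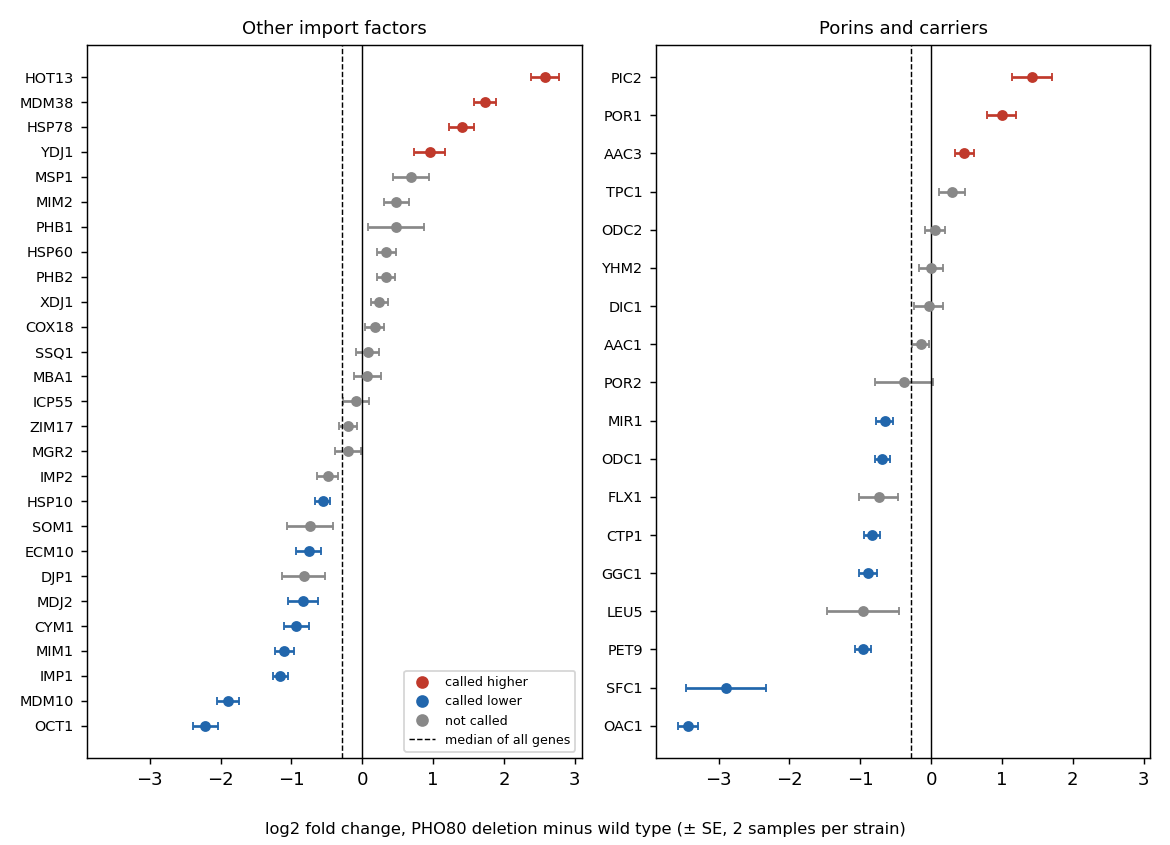
Log2 fold change (x axis, PHO80 deletion minus wild type, bars ± SE, 2 samples per strain) of 27 other import factors and of 18 porin and carrier genes (y axis), coloured by call; the dashed line is the median of all genes tested. HOT13 stands at 2.58 and OCT1 at -2.22 in the first panel, and OAC1 at -3.43 and PIC2 at 1.42 in the second.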

How the data were processed

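Per the file headers, the authors' scanner files hold spot intensity from Agilent Feature Extraction 10.1.1.1, background-subtracted within the array and not scaled between arrays. The deposited value table holds 1 intensity per probe with scale, centring and direction unstated. Set beside the scanner signals, it proved linear and uncentred with the same direction (r of log2 values 0.997 to 0.999), with column medians of 746.5 to 1670. Control spots and outlier spots (1.12% to 1.88%) were left out. Processed signals were scaled to the 75th percentile of their array, put on the log2 scale and averaged per probe (7 spots). Detection on an array meant that over 0.5 of a probe's spots carried the scanner's flag for signal well above background, and genes above background on at least 3 arrays were tested (5863 of 6256). Arrays of a strain that differed by no more than spot noise were averaged. Testing used lmFit and eBayes of limma 3.58.1 under R 4.3.3 (with an intensity trend, 2 residual and 1.93 prior degrees of freedom), with Benjamini-Hochberg adjustment over all genes tested. The fit was tested on simulated data. Names came from RefSeq assembly R64 by systematic name (5756 matched), and no coordinates are given because no build is named for the array. The members, gene lists, gene pairs and the averaging of arrays were chosen with earlier results of these data known. Per-array values are given for each called member, for the highest and lowest member of each complex and for paralogs, and of the other import factors up to 3 rises and 3 falls were named by p. The normexp alternative used median spot signals, the column the files hold, instead of the planned mean signals. Figures were drawn with matplotlib 3.10.9.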

Additional observations from a re-analysis of the deposited data

How the results depend on the processing

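Over the 35 import genes, 25 had the same sign in all 18 fits. No share of all genes is given for that count, so it does not set the import genes apart. The list's median stayed 0.27 to 0.35 above that of all genes. Counts of import genes higher and lower, beside 7 and 7, were 12 and 5 with median centring, 13 and 5 with quantile normalization, 13 and 12 with 6 separate arrays, 3 and 4 with the wild-type arrays as 1 sample, 3 and 2 at an adjusted p under 0.01, and 3 and 5 for changes of at least 2-fold. The shares of all genes in the same order were 26.3% and 25.8%, 27.5% and 24.6%, 27.2% and 44.8%, 8.85% and 19.3%, 9.16% and 18%, and 11.2% and 24.1%. With single arrays left out the import genes ran from 3 to 17 higher and from 4 to 16 lower, and all genes from 8.92% to 37.5% and from 19.1% to 56.1%. With wild type as 1 sample, the spread came from the deletion arrays alone. The other import factors, beside 4 and 8, gave 9 and 4 with median centring, 6 and 5 with quantile normalization, 9 and 12 with 6 separate arrays, 3 and 4 with the wild-type arrays as 1 sample, at an adjusted p under 0.01 or at 2-fold, and from 3 to 12 higher and 4 to 13 lower with single arrays left out. Porin and carrier genes, beside 3 and 7, gave 4 and 5 with median centring and 5 and 5 with quantile normalization. Same-numbered arrays did not deviate together (r across genes -0.116, -0.080 and 0.010). This cannot show whether the numbers pair the samples, because the wild-type arrays differed from each other by about as much as spot noise. With 6 separate arrays and a replicate block the counts were 12 and 12 for import genes and 8 and 11 for other factors, against 25.3% and 42.4% of all genes. Signs turned, all for genes that did not pass: with median centring TOM20 (0.0214), TOM71 (0.0339), SAM35 (0.172) and ERV1 (0.0303); with quantile normalization TOM20 (0.40), TOM71 (0.31), TOM5 (0.51), SAM35 (0.0031) and TIM18 (0.35); and TIM44 with 6 separate arrays, with or without the replicate block (-0.0069). With single arrays left out, fold changes ran across 0 for TIM44 (-0.0519 without deletion array 2 to 0.0358), MGE1 (-0.387 to 0.365 without deletion array 2), OXA1 (-0.20 without deletion array 2 to 0.326) and MAS2 (-0.0339 without wild-type array 2 to 0.301 without deletion array 2). The causes were not tested. The number of arrays limits the precision. All 35 import genes were well above background on all 6 arrays, but this does not show that low signal left their fold changes unaffected. The SAM50 fold change of -1.60 was -1.08 with normexp background correction and -0.65 with quantile normalization.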
